A study of Mus musculus with 2 samples.

Results

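Heterotrimeric G proteins are the switches between receptors in the membrane and the enzymes and channels inside the cell, and 52 genes for their subunits and for the regulators named RGS were compared between taste tissue and tongue epithelium. The genes were the rows whose symbol begins with *Gna*, *Gnb*, *Gng* or *Rgs* and a subunit number or letter. Of 56 such rows among the 18498 rows of the table, 4 were left out because they are taste G protein genes (*Gnat3*, *Gnb3*, *Gng13* and *Gna14*), and *Rgs21*, also set aside, has no row. The rule used names only and no measured value.

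An alpha subunit with GDP bound rests together with a beta and a gamma subunit. An activated receptor makes the alpha subunit take up GTP, after which alpha and the beta-gamma pair act on separate targets, and RGS proteins (regulators of G protein signalling) speed the return by making alpha hydrolyse its GTP faster. Bitter, sweet and umami receptors of type II taste cells work through such a G protein, with gustducin (*Gnat3*) as the best known alpha subunit and phospholipase C beta 2 (*Plcb2*) downstream of its beta-gamma pair.

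The study set the circumvallate papillae (CvP), the trench-shaped taste papillae at the back of the tongue, against tongue epithelium without papillae (Epi), to find genes enriched in taste tissue. For each tissue, RNA was pooled from 20 or more male mice of the strain C57BL/6J, 12 to 30 weeks old, fed normal chow and with no genetic change stated, and 1 poly(A) library was sequenced from each pool. With 1 library per tissue, no p-value and no replicate error can be given, and the intervals below are 95% exact (Clopper-Pearson) intervals that cover counting error only, from estimated reads. Levels are RPKM, reads scaled to the length of a gene's exon model and to the number of mapped reads. Comparison between genes rests on the lengths used, which are uncertain for some genes here.

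The steps between low RPKM values gave about 28380349 mapped reads for CvP and 27915901 for Epi. Over the 10363 rows at an RPKM of 1 or more in both libraries the median CvP/Epi ratio was 1.31 (0.39 on the log2 scale), so a ratio near that value is the middle of the table. The tissue labels were read against marker genes. In all, 6 of 6 type II markers and 6 of 6 type III markers were higher in CvP, with summed levels of 185.8 against 26.23 RPKM and 90.66 against 0.43 RPKM. Of 3 type I markers 2 were higher in CvP and 1 in Epi (69.37 against 8.35 RPKM in sum). Keratinized epithelium markers were abundant in both, with 6 of 7 higher in Epi and 1 in CvP (summed level 87949 RPKM in Epi against 33887 RPKM). The Epi library also held markers of other tissue. Of skeletal muscle markers 7 of 7 were higher in Epi (summed level 49.85 RPKM against 4.56 RPKM). Among 7 salivary gland markers 4 were higher in Epi and 3 in CvP. They summed to 410.9 RPKM in Epi against 12.05 RPKM, most of the Epi sum being *Lipf* and *Amy1*. Fibroblast markers were higher in Epi for 5 of 6 and in CvP for 1 (128.5 RPKM in Epi against 27.52 RPKM), most of it *Dcn*. In such bulk tissue, fewer cells of a type and less RNA per cell cannot be told apart.

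Of the 52 genes, 31 reached an RPKM of 1 in either library, 22 in both, and 21 stayed below 1 in both. A gene was called higher in CvP when its CvP RPKM was at least 1 and its CvP/Epi ratio above 3, with an Epi value of 0 passing. By that rule 10 of 52 (19.2%) were called, against 10.8% of all rows, and the 10 were *Gnaq* and 9 *Rgs* genes (*Rgs2*, *Rgs3*, *Rgs4*, *Rgs7*, *Rgs8*, *Rgs9*, *Rgs11*, *Rgs13* and *Rgs16*). The same rule turned round called none of the 52 higher in Epi, against 1.33% of all rows. With a CvP RPKM above 10 and a ratio above 3, only *Gnaq* and *Rgs2* passed (3.85% of the 52). Of all rows, 435 passed (2.35%). These cut-offs are the criteria of the study, but the paper reports clearly more genes passing them than the deposited values gave here. The reason for that difference was not tested, so the selection of the study was not reproduced. The 10 called genes were 1 of 14 alpha subunits (7.14%), 0 of 14 beta and gamma subunits and 9 of 20 RGS genes (45%), against 10.8% of all rows. For groups of 14 genes the subunit counts are near the share of all rows. Of the 10, only *Gnaq* also reached an RPKM of 1 in Epi. The other 9 were at or above 1 RPKM only in CvP, so they passed the minimum through the tissue where they were high. Of the 1998 rows called in the whole table, 1408 were likewise below 1 RPKM in Epi.

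**Figure D1:**
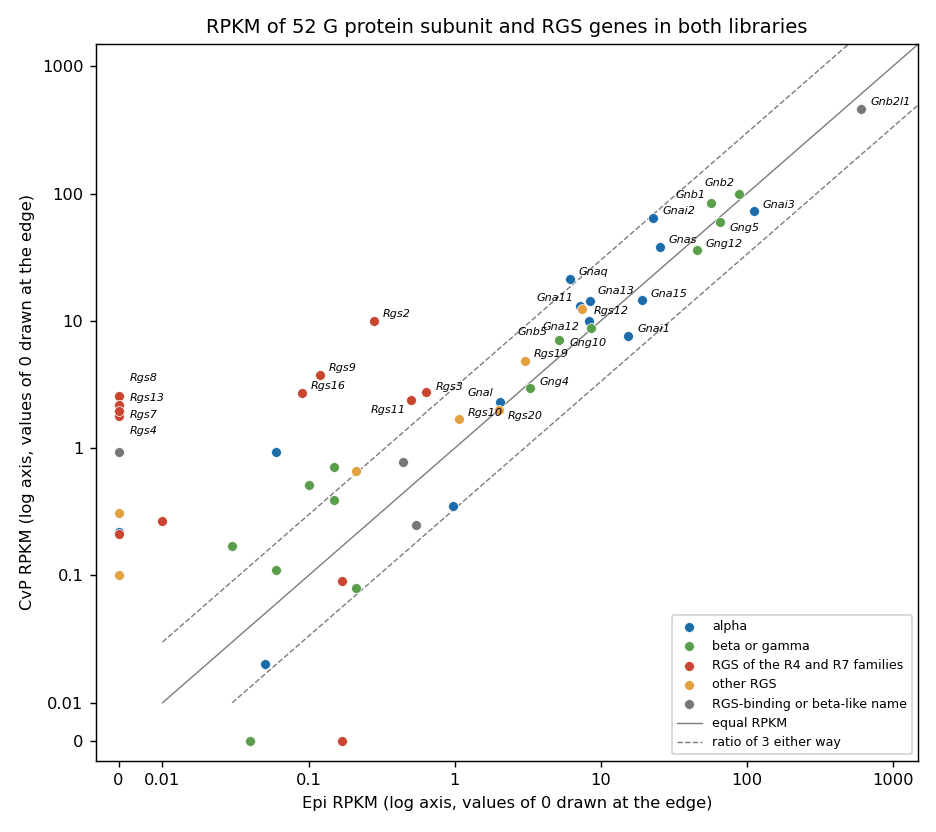
CvP RPKM (vertical log axis) against Epi RPKM (horizontal log axis) of the 52 genes, coloured by role, with values of 0 drawn at the edge, a solid line at equal levels and dashed lines at a ratio of 3 either way. Subunit genes above 1 RPKM lie along the solid line, with *Gnaq* just past the upper dashed line, while the 9 called RGS genes of the R4 and R7 families stand at the left, between 1.78 and 10.05 RPKM in CvP and at 0.64 RPKM or less in Epi.

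The 10 alpha subunits above 1 RPKM differed little in sum but changed their order. Their median log2 ratio was 0.42, against 0.51 over all 12549 rows that passed the same filter, and the 14 alpha genes together came to 260.1 RPKM in CvP and 227.5 RPKM in Epi. *Gnai3*, *Gnai2* and *Gnas* led in CvP with 27.9%, 24.8% and 14.6% of that sum. In Epi *Gnai3* alone held 49%, and *Gnas* and *Gnai2* followed with 11.1% and 10.1%.

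The Gi class, whose members inhibit adenylyl cyclase, held genes that differed in opposite directions. *Gnai2* was at 64.49 RPKM in CvP and 22.92 RPKM in Epi, a ratio of 2.81 (interval 2.65 to 2.99), just under the fold of 3. *Gnai3* went the other way, at 72.58 RPKM in CvP and 111.45 RPKM in Epi (ratio 0.651, interval 0.631 to 0.672). *Gnai1*, the third gene of the class, was lower in CvP too, at 7.65 RPKM against 15.39 RPKM (ratio 0.497, interval 0.453 to 0.545). Division by the median ratio of the table lowers every ratio, so it could reverse only *Gnai2*, which kept its direction at 2.14. It took *Gnai3* and *Gnai1* further down, to 0.496 and 0.379, and is no test of their direction. Rescaling the libraries to equal sums of RPKM raises every ratio. *Gnai3* and *Gnai1* were still lower in CvP after it, at 0.7856 and 0.5996. The sum over the Gi and Go class was nearly level, at 146.2 RPKM in CvP and 150.8 RPKM in Epi. Within that sum the share of *Gnai2* was 44.1% in CvP and 15.2% in Epi, and that of *Gnai3* 49.6% and 73.9%.

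The 3 Gi genes are shown by the end of their reading frame, because the last residues of an alpha subunit are what the receptor grips and what tells the classes apart. Each run below is the last 30 coding bases before the stop codon, read from NCBI37/mm9, with capitals where it differs from *Gnai2*.
Gnai2 (chr9:107517969-107517998, minus strand): aagaacaacctgaaggactgtggcctcttc
Gnai1 (chr5:17772840-17772869, minus strand): aagaaTaacctAaaAgactgtggTctcttc
Gnai3 (chr3:107912343-107912372, minus strand): aaAaacaacTtAaaggaAtgtggGctTtAT
*Gnai1* differed from *Gnai2* at 4 of the 30 bases, and all 10 codons stood for the same residues. *Gnai3* differed at 8 bases, and 8 of 10 codons stood for the same residues. The 2 genes whose receptor-contacting ends are the same in residues, *Gnai1* and *Gnai2*, therefore lay on opposite sides of a ratio of 1. How the authors counted reads that match more than 1 of these genes is not given in the sources used here.

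The remaining genes of this class were low. *Gnao1*, the Go subunit abundant in neurons and neuroendocrine cells, was at 0.94 RPKM in CvP and 0.06 RPKM in Epi (ratio 15.7, interval 6.67 to 42.2), and missed the minimum of 1. *Gnaz*, a relative resistant to pertussis toxin, was at 0.22 RPKM in CvP and listed at 0 in Epi. The transducins of photoreceptors, *Gnat1* of rods and *Gnat2* of cones, were at 0.35 and 0.02 RPKM in CvP and at 0.97 and 0.05 RPKM in Epi. *Gnat1* was thus lower in CvP (ratio 0.361, interval 0.211 to 0.597), and the 4 photoreceptor markers with a row summed to 0.65 RPKM in CvP and 1.08 RPKM in Epi, with the part of such RNA in the *Gnat1* value not tested.

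The Gq class, which activates phospholipase C beta, held the one called subunit. *Gnaq* was at 21.51 RPKM in CvP and 6.13 RPKM in Epi, a ratio of 3.51 (interval 3.27 to 3.77) whose whole interval lay above 3. Divided by the median ratio of the table it was 2.67, so this call depended on how the libraries were scaled. *Gna11*, a close relative with the same targets, was at 13.10 RPKM in CvP and 7.18 RPKM in Epi (ratio 1.83, interval 1.66 to 2.01). *Gna15*, known for coupling to a wide range of receptors, was lower in CvP, at 14.54 RPKM against 19.13 RPKM (ratio 0.76, interval 0.693 to 0.834). The leading gene of the class therefore differed between the tissues: *Gnaq* made up 43.8% of the class in CvP and 18.9% in Epi, and *Gna15* made up 29.6% in CvP and 59% in Epi.

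The ends of *Gnaq* and *Gna11* are given in the same way, with capitals where the second differs from the first, since they show how alike the receptor-contacting parts of these 2 genes are.
Gnaq (chr19:16457852-16457881, plus strand): cagctgaacctgaaggagtacaatctggtc
Gna11 (chr10:80993543-80993572, minus strand): cagctgaacctgaaggagtacaaCctggtG
They differed at 2 of 30 bases and in none of the 10 codons' residues. The neighbours on the chromosomes did not move alike in this class. *Gna15* and *Gna11* lie 4.51 kb apart on chromosome 10 with ratios on opposite sides of 1, while *Gnaq* lies 48.2 kb from the taste gene *Gna14* on chromosome 19, and both were higher in CvP.

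*Gnas*, the Gs subunit that stimulates adenylyl cyclase, was at 38.06 RPKM in CvP and 25.36 RPKM in Epi (ratio 1.5, interval 1.43 to 1.58). Its close relative *Gnal*, known from olfactory neurons and striatum, was at 2.32 and 2.04 RPKM (ratio 1.14, interval 0.977 to 1.33), a difference within counting error. *Gna13* and *Gna12*, which act on the cytoskeleton, were at 14.27 against 8.44 RPKM (ratio 1.69, interval 1.59 to 1.81) and at 10.05 against 8.35 RPKM (ratio 1.20, interval 1.10 to 1.32). *Gnas*, *Gna13* and *Gna11* were above the median ratio of the table, and *Gna12* and *Gnal* changed side when divided by it. *Gnas* also shares 1469 exon bases with *AF085738* and 988 with *Nespas*, both on the opposite strand, and without strand in the counts their reads cannot be told apart.

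Beta subunits are the propeller-shaped partners of gamma, and the 3 genes above 1 RPKM had ratios between 1.13 and 1.46. *Gnb2* was at 100.05 RPKM in CvP and 88.53 RPKM in Epi (ratio 1.13, interval 1.09 to 1.18). *Gnb1* was at 83.82 RPKM in CvP and 57.30 RPKM in Epi (ratio 1.46, interval 1.41 to 1.52). *Gnb5*, the unusual beta subunit that binds RGS proteins of the R7 family in place of a gamma subunit, was at 7.05 and 5.17 RPKM (ratio 1.36, interval 1.17 to 1.59). The 4 beta genes were all higher in CvP as measured, *Gnb4* with 0.17 and 0.03 RPKM among them, as were 13880 of all 18498 rows. *Gnb2* fell to the other side of 1 when divided by the median of the table. 2 genes named like beta subunits are none: *Gnb2l1* encodes the ribosome-bound scaffold RACK1 and was the highest of the 52, at 466.47 RPKM in CvP and 610.60 RPKM in Epi (ratio 0.764, interval 0.75 to 0.779), and *Gnb1l* was at 0.78 and 0.44 RPKM.

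Gamma subunits carry the lipid that holds the complex at the membrane, and 5 of the 10 genes were higher in CvP and 5 in Epi. Over the whole table, 13880 of 18498 rows were higher in CvP and 3909 in Epi. The 4 genes above 1 RPKM were nearly level or lower in CvP. They had a median log2 ratio of -0.14, and 3 of them (*Gng4*, *Gng5* and *Gng10*) changed side of 1 with the scaling of the libraries. *Gng5* led in both tissues at 60.22 RPKM in CvP and 65.92 RPKM in Epi (ratio 0.914, interval 0.876 to 0.953). *Gng12* followed at 35.77 and 45.43 RPKM (ratio 0.787, interval 0.756 to 0.82), the only one of the 4 whose direction was the same under every scaling tried. *Gng10* at 8.84 and 8.55 RPKM (ratio 1.03, interval 0.874 to 1.22) and *Gng4* at 2.96 and 3.30 RPKM (ratio 0.897, interval 0.753 to 1.07) differed within counting error. *Gng10* shares 946 of its 1314 exon bases with the gene model *Gm20503* on the same strand, so its level is uncertain. Below 1 RPKM, *Gng2* was at 0.71 RPKM in CvP and 0.15 RPKM in Epi (ratio 4.73, interval 2.74 to 8.69), and *Gng3*, *Gng7*, *Gng11*, *Gngt1* and *Gngt2* lay between 0 and 0.51 RPKM in CvP and between 0.04 and 0.21 RPKM in Epi. *Gng8* has no row.

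The taste subunits that were left out were at or near 0 in Epi: *Gnat3* was at 127.11 RPKM in CvP and 0.03 RPKM in Epi, *Gnb3* at 104.07 and 0.07 RPKM, *Gng13* at 77.39 and 0 RPKM, and *Gna14* at 17.12 and 0.26 RPKM. Counted with them, *Gnat3* made up 31.4% of the alpha level in CvP, *Gnb3* 35.3% of the beta level and *Gng13* 41.4% of the gamma level. In RPKM as deposited, the 52 genes held the larger share of each class. The listed length of *Gnat3* was 7.3 times its longest annotated coding transcript, against 2.2 times for *Gnai3* and 1 for *Gnai1*. Whether listed lengths set the RPKM is not certain, so the alpha shares and their order are uncertain. Even next to *Gnb3*, *Gnb2* and *Gnb1* made up 33.9% and 28.4% of the beta level in CvP.

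**Figure D2:**
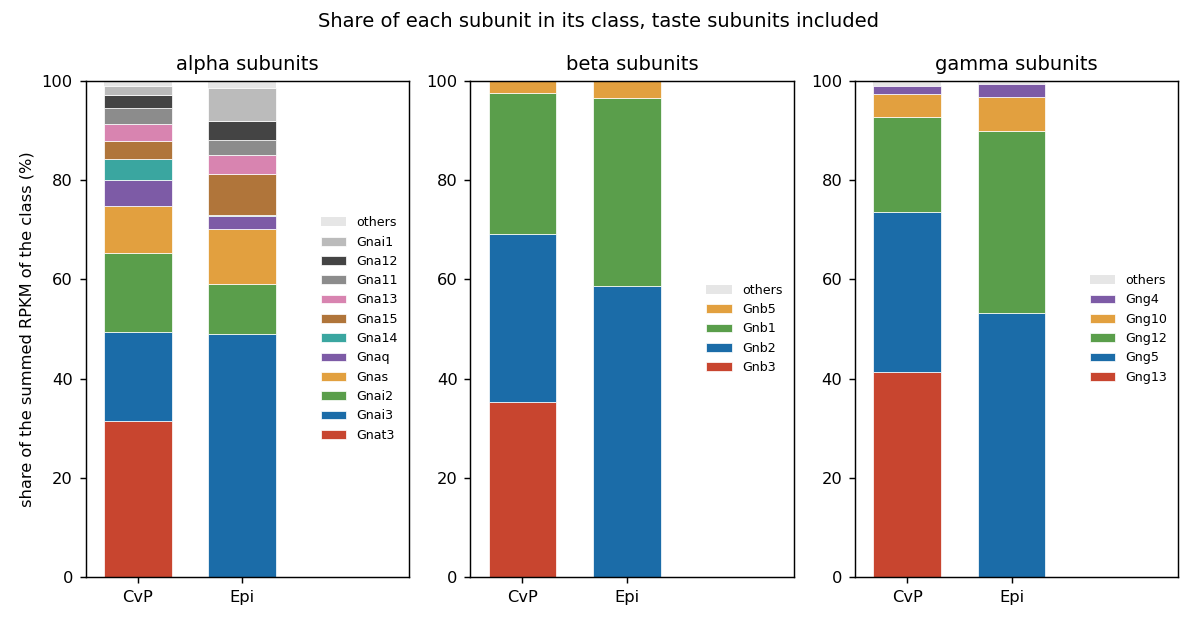
Share (%) of each subunit in the summed RPKM of the alpha, beta and gamma classes in CvP and Epi, 1 library each, with the 4 taste subunits included. *Gnai3* takes 48.9% of the alpha bar in Epi and 18% in CvP, where *Gnat3* takes 31.4%; *Gnb3* and *Gng13* take 35.3% and 41.4% of their bars in CvP and next to nothing in Epi.

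RGS genes made up 9 of the 10 calls, and the families of these 9 had no gene that reached 1 RPKM in Epi. In the whole table, 10363 of 18498 rows reached 1 RPKM in both tissues. The 20 RGS genes came to 52.96 RPKM in CvP and 15.8 RPKM in Epi, and 9 (45%) were called, against 10.8% of all rows. Of the 20, 17 were higher in CvP and 3 in Epi. Of all 18498 rows, 13880 were higher in CvP. The median log2 ratio of the 13 that reached 1 RPKM, 9 of them only in CvP, was 3.89 (4.70 with the 4 genes listed at 0 in Epi set to a floor of 3 reads), against 0.51 over all rows past the same filter, and over all 20 genes with no filter it was 1.86, against 0.49 over all rows. The calls were in 2 of the families into which RGS proteins are sorted by their domains: 6 of 9 genes of the small R4 family and 3 of 4 of the R7 family, and 0 of 7 of the others. Among so few genes, a count of 0 is near the 10.8% of all rows.

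R4 proteins are little more than an RGS domain with a membrane-binding helix. *Rgs2*, which acts best on the Gq class, was at 10.05 RPKM in CvP and 0.28 RPKM in Epi, a ratio of 35.9 (interval 23.5 to 55.2) resting on about 858 and 24 reads. It was the highest of the R4 genes in CvP, with 44.8% of their sum of 22.41 RPKM, and lay just above the study's minimum of 10. *Rgs16*, which acts on the Gi and Gq classes, was at 2.72 RPKM in CvP and 0.09 RPKM in Epi (ratio 30.2, interval 13.3 to 81.5). *Rgs3*, also able to bind beta-gamma, was at 2.79 and 0.64 RPKM (ratio 4.36, interval 3.43 to 5.59) and led the family in Epi with 47.4% of a sum of 1.35 RPKM.

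Of the R4 genes called, 3 were listed at 0 in Epi, so only a lower bound of their ratio can be given, with 3 Epi reads as the floor. *Rgs8*, known from Purkinje cells, was at 2.58 RPKM in CvP (about 425 reads), with a lower limit of 112.8-fold. *Rgs4*, a brain and heart regulator of the Gi and Gq classes, was at 1.78 RPKM in CvP (about 149 reads), with a lower limit of 39.2-fold. *Rgs13*, known from germinal centre B cells and mast cells, was at 2.19 RPKM in CvP (about 93 reads), with a lower limit of 24.3-fold. The remaining R4 genes were near or at 0 in both tissues: *Rgs1*, of lymphocytes, at 0.21 and 0 RPKM, *Rgs5*, of pericytes, at 0 and 0.17 RPKM, and *Rgs18*, of platelets, at 0.09 and 0.17 RPKM.

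R7 proteins pair with the beta subunit of *Gnb5* and act on the Gi and Go class. *Rgs9*, whose retinal form ends the light response of photoreceptors, was at 3.77 RPKM in CvP and 0.12 RPKM in Epi (ratio 31.4, interval 17.2 to 59.4). *Rgs7* was at 1.97 RPKM in CvP and listed at 0 in Epi (about 79 reads, at least 26-fold higher). *Rgs11* was at 2.39 and 0.50 RPKM (ratio 4.78, interval 3.16 to 7.46), and *Rgs6* stayed low at 0.27 and 0.01 RPKM. The 4 genes thus summed to 8.4 RPKM in CvP and 0.63 RPKM in Epi, whereas their partner *Gnb5* differed only from 5.17 to 7.05 RPKM. Of the proteins that anchor R7 complexes in the membrane, *Rgs7bp* was at 0.94 RPKM in CvP and listed at 0 in Epi (about 155 reads, at least 51-fold higher) without reaching the minimum of 1, and *Rgs9bp*, the anchor of *Rgs9* in photoreceptors, was lower in CvP at 0.25 against 0.54 RPKM (ratio 0.463, interval 0.323 to 0.667).

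None of the few R12 and RZ genes was called, against 10.8% of all rows, and the 4 of them above 1 RPKM had ratios between 0.995 and 1.67. *Rgs12*, a large protein that also holds Ras-binding and GoLoco domains, was the highest RGS gene in both tissues at 12.52 RPKM in CvP and 7.51 RPKM in Epi (ratio 1.67, interval 1.55 to 1.79), and its share of the RGS level was 23.6% in CvP and 47.5% in Epi. *Rgs19* of the RZ family, known as GAIP, was at 4.87 and 3.02 RPKM (ratio 1.61, interval 1.29 to 2.03). *Rgs20* of the same family was level at 2.0 and 2.01 RPKM (ratio 0.995, interval 0.77 to 1.30), and *Rgs10* of the R12 family, known from microglia and other leukocytes, was at 1.69 and 1.07 RPKM with an interval that spans 1 (0.952 to 2.70). *Rgs14* was at 0.66 and 0.21 RPKM (ratio 3.14, interval 1.66 to 6.11), *Rgs17* at 0.10 and 0 RPKM, and *Rgs22*, a testis gene outside these families, at 0.31 and 0 RPKM.

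**Figure D3:**
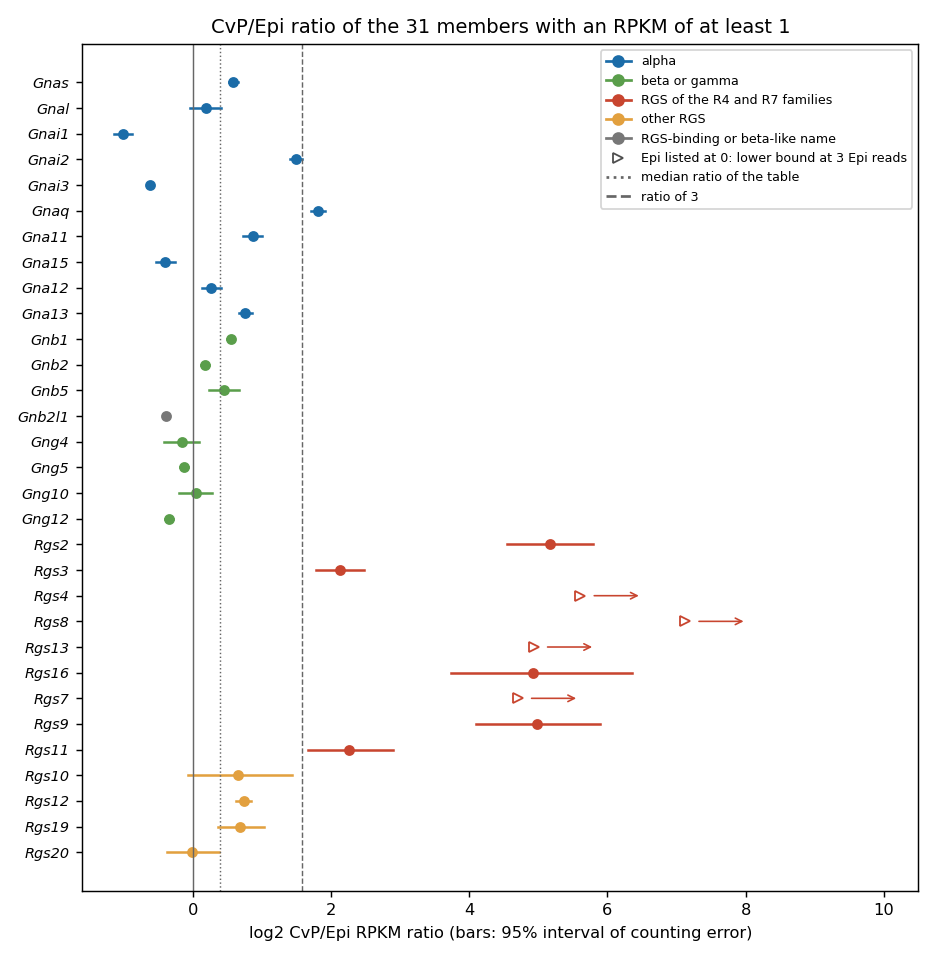
log2 CvP/Epi RPKM ratio of the 31 genes that reached 1 RPKM in CvP or Epi, with 95% counting intervals as bars. For genes listed at 0 in Epi, arrows start at the fold over a floor of 3 Epi reads, without an interval. A dotted line marks the median ratio of the table (1.31) and a dashed line a ratio of 3. Subunits lie between a ratio of 0.497 (*Gnai1*) and 3.51 (*Gnaq*), and the 9 called R4 and R7 genes lie wholly to the right of the dashed line, from 4.36 (*Rgs3*) upward.

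Several of the called RGS genes are known from other cells than taste cells, and the markers of those cells were read beside them. Of 6 neuron markers 5 were higher in CvP and 4 were listed at 0 in Epi, but their summed level was 7.3 RPKM in CvP and 40.43 RPKM in Epi, of which *Tubb3* made up 4.58 and 40.37 RPKM. The CvP levels of the other 5 were 2.32 RPKM for *Nefl* and 0.29 RPKM or less. Of 11 leukocyte markers 9 were higher in CvP, with sums of 85.95 and 28.08 RPKM, led by *Cd74* at 60.56 and 19.9 RPKM, and *Cd79a* of B cells was at 0.03 RPKM in CvP and 0 in Epi. Of 2 mast cell markers with a row, *Cpa3* was at 0 RPKM in CvP and 0.03 RPKM in Epi, and *Kit* at 26.34 and 1.81 RPKM. Glia markers (5 of 5 higher in CvP) summed to 11.6 and 9.32 RPKM and the 4 endothelial markers to 2.83 and 0.27 RPKM, of which *Tek* made up 2.49 and 0.07 RPKM. For *Rgs5*, the 7 pericyte and smooth muscle markers summed to 3.34 RPKM in CvP and 5.94 RPKM in Epi. The part of these cells in the RGS values was not tested.

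Genes of the R4 family sit in groups on mouse chromosome 1, and some neighbours there shared a level while others did not. *Rgs2* (145846468 to 145851279 in mm9), *Rgs13* (145985797 to 146024502) and *Rgs1* (146091799 to 146096234) follow each other with no other row of the table starting between them, and their CvP levels were 10.05, 2.19 and 0.21 RPKM. *Rgs18*, which starts 753.5 kb from the start of *Rgs2*, was at 0.09 RPKM. *Rgs8* and *Rgs16* lie 42.7 kb apart and were alike, at 2.58 and 2.72 RPKM in CvP with 0 and 0.09 RPKM in Epi. *Rgs5* and *Rgs4*, 48.0 kb apart, were not: *Rgs4* was at 1.78 RPKM in CvP and 0 in Epi, and *Rgs5* at 0 in CvP and 0.17 RPKM in Epi.

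**Figure D4:**
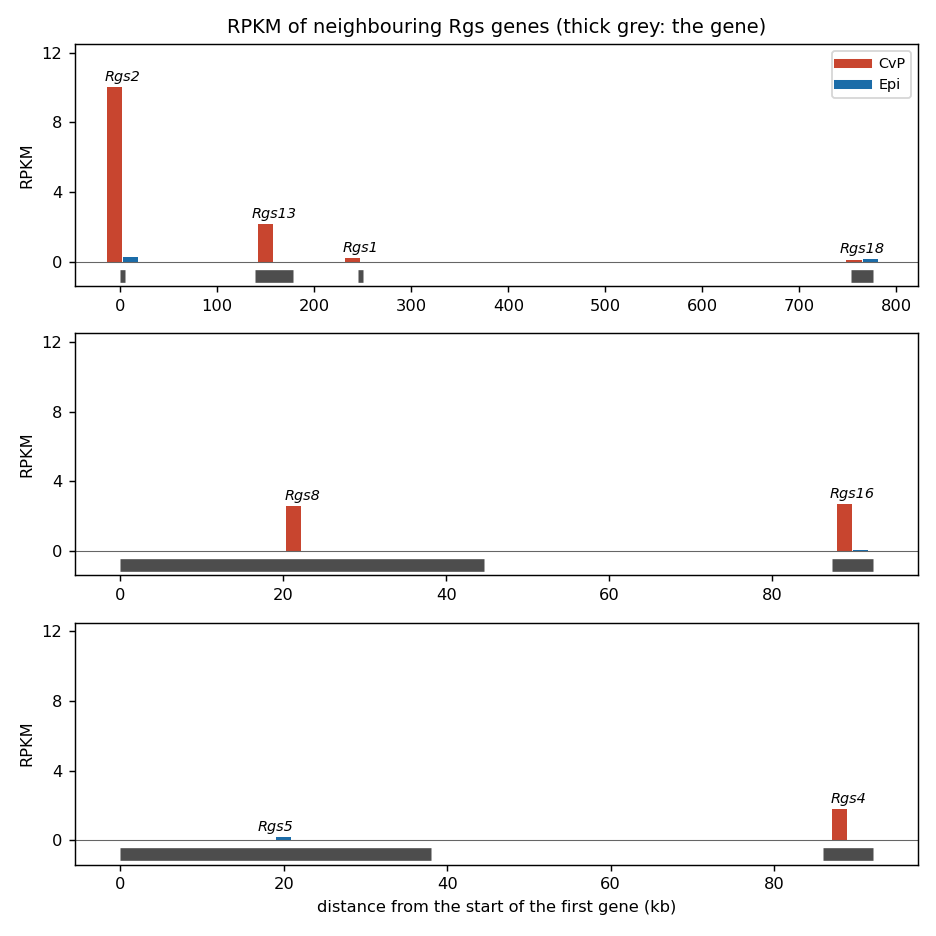
RPKM in CvP and Epi of neighbouring *Rgs* genes on chromosome 1, against distance (kb) from the start of the first gene of each group, with grey blocks for the genes. In the upper group the CvP bars fall from *Rgs2* (10.05) to *Rgs18* (0.09), *Rgs8* and *Rgs16* are near equal (2.58 and 2.72), and of the pair *Rgs5* and *Rgs4* only *Rgs4* has a CvP bar (1.78).

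The called neighbours *Rgs2* and *Rgs13* are shown by their promoters, because they are far apart in the one sequence feature counted, the dinucleotide CG. Each run is the 150 bases before the start, from the RefSeq sequence of GRCm38.p6 with coordinates of that build, and CG stands in capitals.
Rgs2 (chr1:144004150-144004299, minus strand): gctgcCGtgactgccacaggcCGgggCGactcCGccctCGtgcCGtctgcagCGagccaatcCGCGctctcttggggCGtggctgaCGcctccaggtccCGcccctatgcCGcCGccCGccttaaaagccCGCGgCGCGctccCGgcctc
Rgs13 (chr1:144177373-144177522, minus strand): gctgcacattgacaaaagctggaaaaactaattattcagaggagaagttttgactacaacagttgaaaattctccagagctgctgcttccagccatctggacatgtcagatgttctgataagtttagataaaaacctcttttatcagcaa
The *Rgs2* run holds 20 CG and the *Rgs13* run 0. Over the 250 bases before the start *Rgs2* holds 30, more than 94.1% of the 32851 promoters of the table, whose median is 6. Promoters of 37 of the 52 genes were matched, 9 of the 10 called genes among them, and the called genes ranged from 0 (*Rgs13*) to 37 (*Gnaq*), so they had no CG content in common.

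Other genes of the G protein cycle were read from a list of 61 enzymes, channels and regulators, of which 60 have a row. By the same rule 12 of 60 (20%) were called higher in CvP, against 10.8% of all rows, and 1 (1.67%) higher in Epi, against 1.33%. The list was chosen with earlier results of these data known and includes *Plcb2*, a taste cell marker of the study. The share is therefore descriptive and no test of enrichment. Of the 12, 10 were below 1 RPKM in Epi, as were 1408 of the 1998 rows called in the whole table. The targets of Gq and beta-gamma included the highest, with *Plcb2* at 70.01 RPKM in CvP and 0.12 RPKM in Epi (ratio 583) and *Plcb4*, a second phospholipase C beta, at 6.24 and 0.09 RPKM (ratio 69.3). *Plcb3*, in contrast, was level at 27.16 and 27.65 RPKM. *Kcnj5*, a potassium channel opened by beta-gamma, was at 15.0 RPKM in CvP and listed at 0 in Epi (at least 628-fold higher), and *Pik3r5*, the regulatory subunit of a beta-gamma activated lipid kinase, was at 1.27 and 0.06 RPKM (ratio 21.2).

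Cyclic AMP enzymes were called in both directions, but among those reaching 1 RPKM in either tissue *Adcy8* alone was higher in Epi. Below the fold of 3, *Adcy6* was at 9.56 RPKM in CvP and 3.82 RPKM in Epi, and *Pde7a* at 9.16 and 3.42 RPKM. *Adcy1*, an adenylyl cyclase stimulated by calcium, was at 2.02 RPKM in CvP and 0.06 RPKM in Epi (ratio 33.7), and *Pde4d*, which degrades cyclic AMP, was at 2.98 and 0.41 RPKM (ratio 7.27). *Adcy8*, another calcium-stimulated cyclase, was the 1 gene called higher in Epi, at 0.13 RPKM in CvP and 2.11 RPKM in Epi, a 16.2-fold difference. Genes that silence receptors were called as well: *Arrb1* and *Arrb2*, the beta-arrestins, were at 2.73 against 0.64 RPKM (ratio 4.27) and 3.69 against 0.79 RPKM (ratio 4.67), and the receptor kinase *Adrbk2* (GRK3) was at 5.89 and 1.18 RPKM (ratio 4.99, interval 4.32 to 5.82). Its relative *Adrbk1* (GRK2) was more abundant and not called, at 43.38 and 55.38 RPKM (ratio 0.783).

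Of proteins that hold alpha subunits, *Rap1gap*, a GoLoco protein that turns off Rap, was at 10.52 RPKM in CvP and 0.78 RPKM in Epi (ratio 13.5, interval 10.9 to 16.9). *Ric8b*, a chaperone and exchange factor of the Gs class, was at 5.95 and 1.45 RPKM (ratio 4.10, interval 3.37 to 5.04), and *Gpsm3*, a GoLoco protein of leukocytes, was at 1.23 and 0.18 RPKM (ratio 6.83). *Gpsm1* of the same kind was lower in CvP, at 9.08 and 18.54 RPKM (ratio 0.490). No gene was called among the 4 chaperones of beta-gamma, of which 2 reached 1 RPKM in either tissue. With 10.8% of all rows called, a count of 0 among so few genes says little.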

How the data were processed

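The authors mapped reads of 2 libraries (CvP and Epi, a TruSeq kit, poly(A) RNA, 1 pool of mice each) with Bowtie 0.12.7 to NCBI37/mm9 and made RPKM values with ERANGE. Its options, whether strand was used and how multiply matching reads were counted are not given in the sources used here. The deposited table holds RPKM values, lengths, positions and the authors' CvP/Epi ratio, which was not used. The members and gene lists were chosen with earlier results of these data known.

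Ratios are quotients of deposited RPKM. Reads were estimated from the RPKM of 1 read in rows of 0.1 kb (0.352 in CvP, 0.358 in Epi) and, per gene, either the listed length or the longest coding transcript of GENCODE M1, whichever was shorter. The listed length was up to 6.25 times the annotated one (*Gnas*), so reads and intervals are approximate. Medians used a pseudocount of 0.1 and a minimum of 1 RPKM in CvP or Epi, on a log2(RPKM + pseudocount) scale, which understates low genes. Every member was accounted for, ordered by role, and partners were named where called. The calculation was tested on simulated data. Python 3.11.15, pandas 2.3.3, numpy 2.4.6, scipy 1.17.1 and matplotlib 3.10.9 were used. Alternatives were other minimums, folds, pseudocounts and scalings. Promoters came from RefSeq (GRCm38.p6), coding ends from the mm9 genome.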

Additional observations from a re-analysis of the deposited data

How the results depend on the processing

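No paired analysis was possible because there is no second library of CvP or of Epi, no test was run and no replicate could be left out, and intervals cover counting error only. The 10 genes called higher in CvP became 3 at a minimum of 3 RPKM (*Gnaq*, *Rgs2* and *Rgs9*), 21 with no minimum and 6 with a pseudocount of 1. Dividing by the median ratio left 9, without *Gnaq*, and equal sums gave 11, with *Gnai2*. The 0 higher in Epi became 2 with no minimum (*Gngt1* and *Rgs5*) and 1 at a fold of 2 (*Gnai1*). The 2 genes past the study's criteria became 1 at a minimum of 20 (*Gnaq*) and 1 after division by the median (*Rgs2*). The median log2 ratio of alpha subunits (0.42) was 0.58 at a minimum of 3 RPKM, 0.031 after division by the median and 0.69 with equal sums. That of beta and gamma subunits (0.05) was 0.28 with no filter, -0.34 after division by the median and 0.32 with equal sums, so its sign depends on scaling. That of RGS genes (3.89) was 1.48 with a pseudocount of 1, 1.86 with no filter, 2.43 at 3 RPKM and 3.50 after division by the median. The 1 partner higher in Epi became 2 at a fold of 2 (*Adcy8* and *Gpsm1*), and the 12 higher in CvP stayed within 1.5 times. Of 108 member ratios recomputed for 27 genes, 61 stayed within the counting interval and 47 left it. Genes listed at 0 in Epi were not among the 27. Under scaling, 7 of 31 genes changed side of 1 (*Gnal*, *Gna12*, *Gnb2*, *Gng4*, *Gng5*, *Gng10* and *Rgs20*).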
